A study of Homo sapiens with 16 samples.

Results

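The upstream window comprised the 2 kb before the transcription start site (TSS), which is 2000 of the 122001 positions in each of 16 averaged profiles of nascent RNA. Its members were chosen by position alone, as every base from 2000 to 1 bp upstream of the TSS. The profiles came from DRB/GRO-seq in RECQL5-shutoff clones 15 and 18 of HEK293T-Rex, an embryonic kidney cell line with a tetracycline repressor. Each clone was derived from a single colony, and an shRNA constantly depleted endogenous RECQL5 in all groups. WT cells expressed an shRNA-resistant RECQL5 at a physiological level with 0.2 ng/ml of doxycycline, and KD cells had lost it after 4 days without doxycycline. WT was thus a rescued state of the same clone and not an unmodified cell. All cells were held in DRB for 3.5 hr and taken at 0, 10, 25 or 40 min after its removal, from 1 dish for each clone, genotype and time. The 16 libraries therefore gave n = 2 clones for each genotype and time, and p values measured only the spread between clones and series.

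In GRO-seq, RNA polymerase II (RNAPII) that is already engaged on DNA is allowed to extend its transcript in isolated nuclei with a brominated nucleotide, and the labeled RNA is purified and sequenced. Most active mammalian promoters fire in both directions. The upstream, divergent transcripts are usually short and are degraded early, whereas those in the gene direction are extended into mRNA precursors. DRB inhibits the kinase P-TEFb, which releases paused RNAPII into elongation, and RECQL5 is a helicase that binds RNAPII. The profiles give no depth by strand, and the strand counted is not given. Upstream depth may therefore hold transcripts of either direction or of both.

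Because each profile is an average over long genes, no value of a single gene exists in it. The kind of DNA that the window covers is shown with CTNNBL1, a gene on chromosome 20 that the study used to display its tracks. With the TSS of its largest transcript at position 36322357 of hg19 on the plus strand, the stretch from 600 to 501 bp upstream lies at chr20:36321757-36321856, around the median position of the averaged upstream peak (520.5 bp). The stretch from 100 to 1 bp upstream lies at chr20:36322257-36322356, where the averaged profiles had a trough between the upstream and downstream peaks. No annotated gene overlaps either stretch, which is promoter-flanking sequence outside any exon or intron. CpG dinucleotides are in capitals.
CTNNBL1, 600 to 501 bp upstream: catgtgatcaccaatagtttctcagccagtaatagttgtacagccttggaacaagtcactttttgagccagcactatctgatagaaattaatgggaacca
CTNNBL1, 100 to 1 bp upstream: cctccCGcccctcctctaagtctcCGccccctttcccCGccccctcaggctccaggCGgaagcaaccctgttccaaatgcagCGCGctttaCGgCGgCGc
The outer stretch holds 0 CpG dinucleotides at 40% GC, and the inner stretch holds 9 at 69% GC.

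The same gradient existed across 8888 annotated protein-coding genes whose largest transcript spans 30 kb or more. Mean GC content was 43.4% from 2 to 1.75 kb upstream, 49.1% from 0.75 to 0.5 kb and 62.3% in the last 0.25 kb. The ratio of observed to expected CpG dinucleotides was 0.283 in the outermost of these bins and 0.791 in the innermost. For comparison, GC content was 64.7% in the first 0.25 kb of the genes and 42.5% at 10 to 11 kb. The start of another annotated gene on the opposite strand lay within the window at 21.9% of the genes, and that of a protein-coding gene at 10.0%. At 9.29% of the genes, the latter start lay within 1 kb of the TSS. Some annotated gene other than the long gene itself overlapped the window at 47.2%. Whether these neighboring genes contributed to the upstream depth was not tested.

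In 3 of the 16 libraries, the window stood apart from the rest. In KD clone 15, mean upstream depth was 1.69 at 0 min and 2.31 at 10 min, 14.9% of WT depth in the same clone at both times, and the first 1 kb of the genes was similarly low at 3.49 and 4.48. In WT clone 15 at 40 min, the upstream profile was almost flat. Its mean of 1.71 was 0.948 times the far background, the mean depth from 110 to 120 kb in the same profile, and its maximum exceeded this background by only 0.117. The far background itself lay between 1.55 and 1.98 in all 16 profiles. Each window held the equivalent of 140197 to 1416725 reads, so that the counting error of its mean was 0.0840% to 0.267%. This covers counting error only, since copies of a molecule are not independent, and it was small beside the differences between clones. Depth is given throughout as the mean normalized read depth per base, after the authors' scaling of each library to 20000000 reads.

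With transcription blocked, at 0 min, the upstream window held a single compact peak, separated from the larger downstream peak by a trough just before the TSS. The highest 50 bp running mean in WT was 32.4 in clone 15, 429 bp upstream, and 27.6 in clone 18, 470 bp upstream. In KD, it was 2.96 in clone 15, 437 bp upstream, and 17.4 in clone 18, 516 bp upstream. The peak position thus varied far less between the 4 libraries than the peak depth. The trough lay 30 to 50 bp upstream, at 20.7% to 35.3% of the upstream peak. It remained in place at the later times and was found 23 to 51 bp upstream in all 16 profiles, within the most GC-rich upstream bin. The part of base composition in the trough was not tested. Depth in the outermost 0.25 kb was between 1.17 and 1.76 at 0 min, or 0.714 to 1.08 times the far background, so the peak lay wholly within the window.

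**Figure D1:**
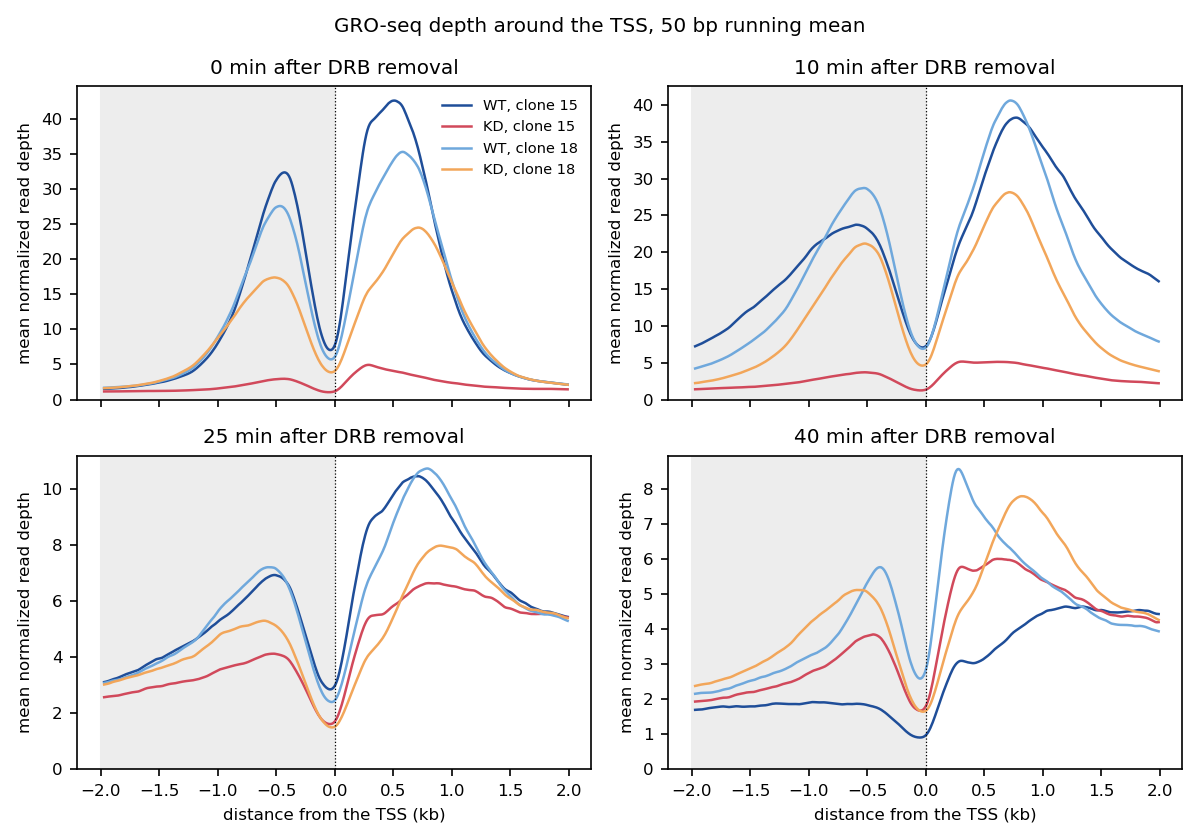
Mean normalized read depth (50 bp running mean) against distance from the TSS in kb, with 1 panel per time and 1 line per library; the gray area is the upstream window and the depth axes differ between panels. The upstream peak lay below the downstream peak in all 16 libraries, KD clone 15 was low at 0 and 10 min, and WT clone 15 was flat upstream at 40 min.

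At 10 min after DRB removal, upstream depth was higher than at 0 min in each of the 4 series of clone and genotype. Mean depth went from 11.4 to 15.6 in WT clone 15, from 10.4 to 14.8 in WT clone 18, from 1.69 to 2.31 in KD clone 15 and from 7.81 to 10.0 in KD clone 18. These are factors of 1.37, 1.42, 1.37 and 1.28. The mean log2 change was 0.44 ± 0.062 (SD over 4 series), which is 1.36-fold. The unpaired exact permutation test of 4 against 4 libraries gave p = 0.514, and without KD clone 15 an exact p of 0.3. The exact sign-flip test paired by series gave p = 0.125, the smallest that 4 pairs can give. The size of this difference depended on the background and on the window. Above the far background, the factors were 1.43 and 1.51 in WT clones 15 and 18 and 1.38 in KD clone 18. KD clone 15 went from 0.0597 to 0.638 above background, and the mean log2 change of 1.25 rested largely on this series. Within 1 kb of the TSS, without subtraction, the mean log2 change was 0.22.

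Thereafter, upstream depth was lower in 3 of the 4 series. From 10 to 25 min, it went to 4.73 in WT clone 15, 4.78 in WT clone 18 and 3.88 in KD clone 18, which is 0.304, 0.322 and 0.388 of the earlier level. KD clone 15 went the other way, to 3.14 (1.36-fold). The mean log2 change was -1.07 (p = 0.143, exact permutation test) and -1.57 without KD clone 15 (p = 0.1, exact, the smallest that 3 against 3 can give). At 25 min the 4 libraries lay closer together than at any other time, from 3.14 to 4.78. From 25 to 40 min, depth was lower in 4 of 4 series, with a mean log2 change of -0.59 (p = 0.0857, exact permutation test). This value rested largely on WT clone 15, which was at 0.361 of its 25 min level, and was -0.30 without that series. At 40 min, mean depth was 1.71 and 3.37 in WT and 2.63 and 3.51 in KD, for clones 15 and 18, respectively. These genotypes overlapped.

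**Figure D2:**
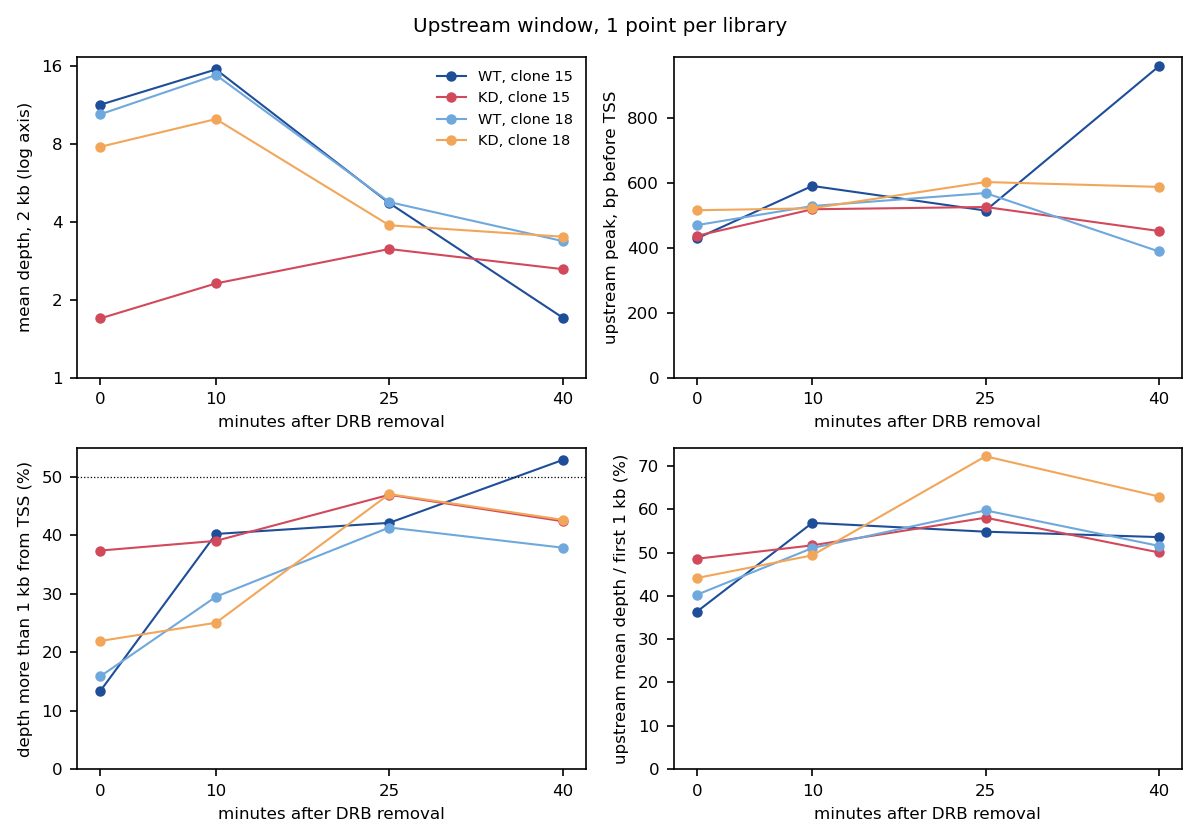
Measures of the upstream window against minutes after DRB removal, 1 point per library and 1 line per series: mean depth (log axis), distance of the peak before the TSS in bp, percent of the depth lying more than 1 kb upstream (dotted line, the 50% of an even depth), and mean depth as a percent of the first 1 kb. Depth was higher at 10 than at 0 min in 4 of 4 series, and the outward share was higher at 25 than at 0 min in each of them.

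A larger share of the window's depth lay more than 1 kb from the TSS after release. The outward share, the percent of the window's summed depth found more than 1 kb upstream, was 13.4% and 15.9% in WT clones 15 and 18 at 0 min, and 37.4% and 21.9% in KD. An even depth would give 50%, and the low, flat KD clone 15 library was closest to this. At 10 min, the share was 40.2% and 29.5% in WT, and 39.0% and 25.0% in KD. At 25 min, it was 42.1% and 41.3% in WT, and 46.9% and 47.0% in KD. By 40 min, the values were 52.9% and 37.9% in WT, and 42.4% and 42.6% in KD.

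Compared between times, the share was higher in 4 of 4 series at 10 min than at 0 min (by 11.3 percentage points, p = 0.114, exact permutation test). It was higher again in 4 of 4 at 25 min (by 10.9 points, p = 0.0286), where the 2 sets of libraries did not overlap in this exact test. From 0 to 40 min the difference was 21.8 points, also with 4 of 4 series higher and exact p = 0.0286. The latter p is the smallest that 4 against 4 can give. Adjusted over all 20 time tests by the Benjamini-Hochberg method, the 2 permutation p values were 0.0952, and paired by series they were 0.125, the smallest possible. Neither difference therefore passed the threshold of 0.05 after adjustment. Without WT clone 15, the 0 to 40 min difference was 15.9 points, and without KD clone 15 it was 27.4 points. A flat background alone gives 50%, and mean depth at 25 and 40 min was only 0.948 to 2.48 times the far background. Within 1 kb of the TSS, the share beyond 500 bp differed by 6.37 points from 0 to 10 min (exact p = 0.0286), but by -0.21 points from 10 to 25 min and 2.38 points from 0 to 40 min (exact p = 0.857 and 0.457).

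Divided into 0.25 kb bins, the first 10 min showed where the added depth lay. From 2 to 1.75 kb upstream, depth was 4.91 times the 0 min level in WT clone 15 and 2.66 times in WT clone 18, but 1.25 and 1.43 times in KD clones 15 and 18. From 0.5 to 0.25 kb, the corresponding factors were 0.673 and 1.001 in WT, and 1.19 and 1.21 in KD. In WT, depth was thus added mainly in the outer part of the window, while near the TSS it was lower in clone 15 and about equal in clone 18. In KD, the factors were between 1.16 and 1.61 in all bins of both clones. In KD clone 18, they were also higher in the outer part, at 1.41 to 1.55 beyond 1 kb and 1.19 to 1.29 within it. In KD clone 15, outermost depth was below the far background at 0 min (0.714 times) as well as at 10 min, so its outer factors compare values at the floor. The 10 min profile of WT clone 15 lay above its 0 min profile from the outer end of the window to 662 bp upstream, and changed sides 3 times in all, the last time 30 bp upstream. Both KD series lay above their 0 min profile at every position compared. The outermost depth at 10 min was 7.97 and 4.69 in WT clones 15 and 18, or 5.11 and 3.03 times the far background, so that the 2 kb window did not contain the whole upstream signal at this time. In KD, it was 1.46 and 2.47, or 0.874 and 1.599 times the background. With 2 clones per genotype the difference between genotypes in this spread was not tested.

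From 10 to 25 min, the factors were lowest within 1 kb of the TSS in the 3 series that lost depth. From 0.5 to 0.25 kb upstream, depth was 0.312 and 0.253 of the 10 min level in WT clones 15 and 18, and 0.237 in KD clone 18. From 2 to 1.75 kb, it was 0.406, 0.676 and 1.26, respectively. KD clone 15 was higher in all bins, by factors of 1.13 to 1.79. The last step ran opposite in 3 of the 4 series. From 25 to 40 min, the outermost bin was at 0.689 to 0.782 of its earlier level in both KD clones and WT clone 18, whereas the bin next to the TSS was at 1.02 to 1.09. In WT clone 15, all bins were lower, at 0.266 to 0.536.

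**Figure D3:**
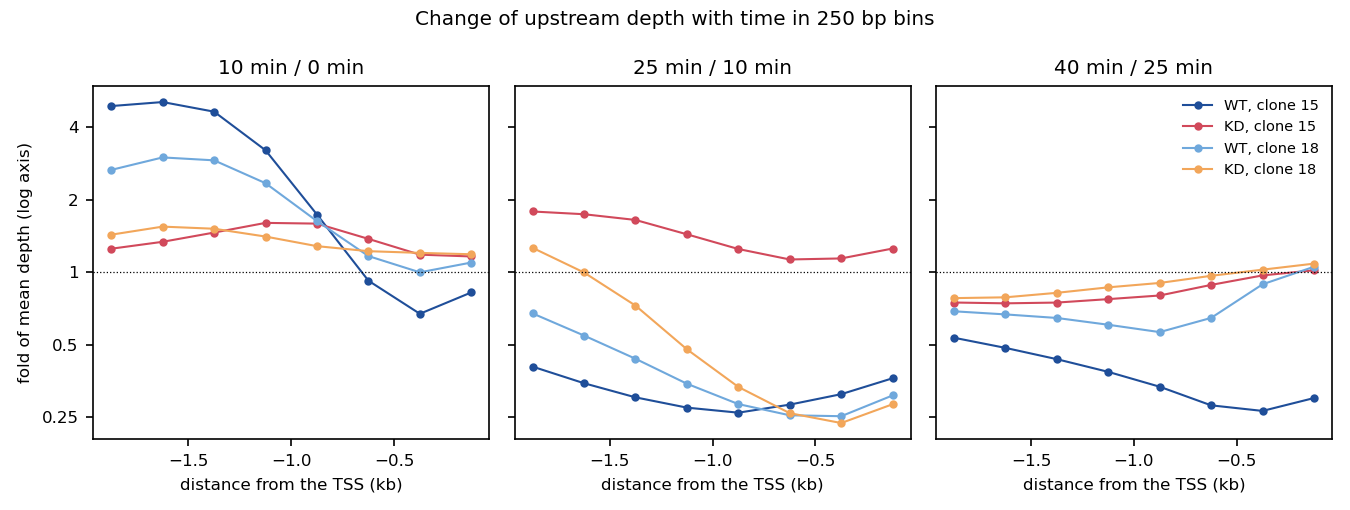
Fold of mean depth between successive times (log axis) against distance from the TSS in kb, in 0.25 kb bins, 1 line per series; the dotted line marks no change. From 0 to 10 min the WT lines reached 4.91 and 2.66 in the outermost bin, above both KD lines at 1.25 and 1.43.

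The peak itself moved little. At 10 min, it lay 591 and 529 bp upstream in WT clones 15 and 18 and 519 and 522 bp in KD, farther out than at 0 min in 4 of 4 series. Its mean distance was 463 ± 39.5 bp (SD, n = 4) at 0 min and 540.25 ± 34.1 bp at 10 min, a shift of 77.25 bp (p = 0.0286, exact permutation test, and 0.0952 adjusted). The replicate block by series gave an exact p of 0.125. The shifts of the single series ranged from 6 bp in KD clone 18 to 162 bp in WT clone 15, and all were shorter than the 250 bp to which reads had been extended. At 25 min, the distance was 553 ± 40.5 bp, which differed from 10 min by less than the spread between libraries. At 40 min, it was 389 bp in WT clone 18, 452 bp in KD clone 15 and 588 bp in KD clone 18. The value of 960 bp in WT clone 15 describes a flat profile rather than a peak.

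The width at 50% of the peak height, counted above the far background, varied more than the position. At 0 min it was 566 and 612 bp in WT clones 15 and 18, and 428 and 729 bp in KD. It was larger at 10 min in 4 of 4 series, at 1246, 866, 678 and 786 bp in the same order (p = 0.0571, exact permutation test). At 25 min it was 1055, 941, 1178 and 1196 bp. It was smaller at 40 min in 4 of 4 series, at 330, 568, 703 and 906 bp, a mean difference of -466 bp (exact p = 0.0286, and 0.0952 adjusted). Paired by series, that exact p was 0.125. The 330 bp of WT clone 15 describes a flat profile rather than a peak. Without that series, the mean difference was -379 bp. Except in WT clone 15 from 25 to 40 min, the differences lay mainly at the outer edge of the peak. In that series, the outer edge went from 1279 to 1073 bp and the inner edge from 224 to 743 bp. The outer edge was found 708 to 962 bp upstream at 0 min and 966 to 1461 bp upstream at 10 min. It was found 1193 to 1494 bp upstream at 25 min and 756 to 1180 bp upstream at 40 min. In 15 of the 16 libraries, the inner edge stayed between 188 and 298 bp, and it was 743 bp in the flat WT clone 15 profile at 40 min. Because of the read extension, these widths exceed those that unextended reads would give, by an amount that cannot be recovered from the profiles.

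Relative to the first 1 kb of the genes, mean upstream depth was 36.3% and 40.2% in WT clones 15 and 18 at 0 min, and 48.6% and 44.1% in KD. At 10 min, the ratio was 56.9% and 51.0% in WT, and 51.7% and 49.4% in KD, higher than at 0 min in 4 of 4 series. The mean difference was 0.31 on the log2 scale (1.24-fold, p = 0.0286, exact permutation test, and 0.0952 adjusted). At 25 min, it was 54.8% and 59.7% in WT, and 58.1% and 72.2% in KD. At 40 min, it was 53.6% and 51.5% in WT, and 50.04% and 62.9% in KD. From 0 to 40 min, the log2 difference was 0.37 (exact p = 0.0286, and 0.0952 adjusted), with 4 of 4 series higher. Paired by series, both exact p values were 0.125.

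This difference in ratio depended on how much of the signal was counted on either side. With 1 kb on each side of the TSS, the 0 to 10 min change was 0.0884 on the log2 scale, and the 0 to 40 min change was -0.10. With 2 kb on each side of the TSS, the 0 to 10 min change was -0.01 on the log2 scale, and the 0 to 40 min change was -0.24. For the heights of the upstream and downstream peaks, the changes were -0.02 and -0.28. The downstream signal had spread past 1 kb over the same interval, its outer edge at 50% of the height lying at 726 to 1095 bp at 0 min and 1161 to 1621 bp at 10 min. The part of this spread in the ratio was not tested. The downstream edge was 1.03 to 1.16 times as far from the TSS as the upstream edge at 0 min, and 1.11 to 1.33 times at 10 min. It was 1.202 to 1.93 times as far at 25 min and 1.31 to 3.001 times at 40 min, without KD clone 15 at 25 min and WT clone 15 at 40 min, where the downstream edge was not reached within 10 kb.

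Bin by bin, upstream depth was below downstream depth at the same distance in all 16 libraries and all 8 bins, at 38.4% to 94.4%. The 2 sides were most alike from 0.25 to 0.5 kb, at 74.5% ± 11.3 (SD, n = 4) at 0 min, 81.1% ± 12.7 at 10 min, and 77.8% ± 13.03 and 68.5% ± 14.9 at the later times. From 1.75 to 2 kb, the mean was 73.7% ± 3.60 at 0 min, where both sides were near background, and 55.1% ± 6.82, 55.2% ± 5.06 and 48.3% ± 7.85 at the later times. The upstream peak height was 41.2% to 78.1% of the downstream one.

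**Figure D4:**
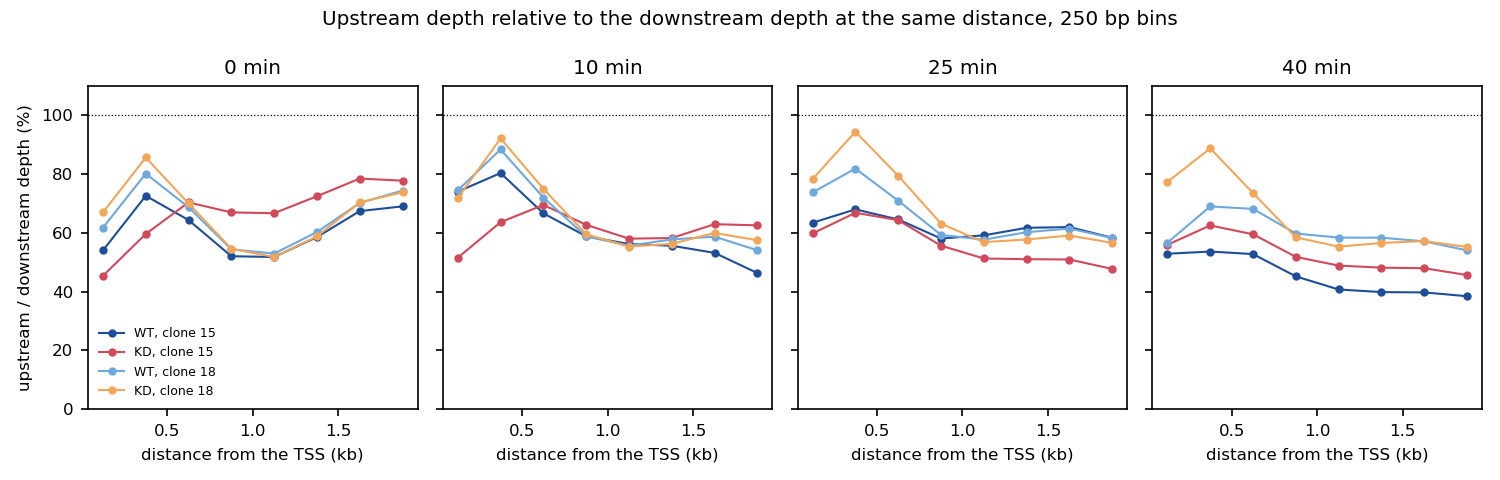
Upstream mean depth as a percent of the downstream mean depth at the same distance from the TSS in kb, in 0.25 kb bins, 1 panel per time and 1 line per library; the dotted line marks equal depth. All points lie below it, between 38.4% and 94.4%, and the bin from 0.25 to 0.5 kb is the highest in 14 of the 16 libraries.

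The sequence next to the TSS also differed between the sides. The 6-base motif GGTAAG, a strong match to the 5′ splice site that U1 snRNP recognizes, occurred in the gene direction in the first 1 kb of 27.7% of the long genes. Read in the direction away from the gene, it occurred in the nearest 1 kb upstream of 13.1%, and in windows of the same length at 10 to 11 kb in 14.8% on the gene strand and 14.1% on the other. The polyadenylation signal AATAAA occurred in 23.4% of the first 1 kb windows on the gene strand and in 38.7% of the nearest upstream windows read away from the gene. At 10 to 11 kb, these letters occurred in 47.5% of the windows on the gene strand and 61.7% on the other. Within the nearest 1 kb upstream, the strands were alike. On the gene strand there, GGTAAG occurred in 13.1% and AATAAA in 40.7%. In the first 1 kb read away from the gene, GGTAAG occurred in 12.3% and AATAAA in 33.4%. Such matches describe the sequence only and are affected by its base composition, and their part in the profiles was not tested.

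KD was then compared with WT at each time, with the caution that 2 against 2 libraries cannot give an exact p below 0.333. At 0 min, mean upstream depth in KD was 14.9% of WT in clone 15 and 74.8% in clone 18. At 10 min, it was 14.9% and 67.5%. At 25 min, it was 66.4% and 81.3%. At 40 min, it was 154% and 104%. Over the 2 kb, KD depth was therefore lower in both clones at the first 3 times and higher in both at 40 min. At 0, 10 and 40 min, however, the clones differed from each other by more than the mean difference between genotypes. The 154% of clone 15 at 40 min rested on its flat WT profile. In clone 18 at that time, KD was below WT within 0.5 kb of the TSS (66.5% and 80.1%) and above it farther out. Above the far background, KD depth in clone 15 was 0.609% of WT at 0 min, 4.56% at 10 min and 44.8% at 25 min, and in clone 18 it was 69.5%, 63.7% and 70.9%. The mean log2 differences thereby went from -1.58 to -3.94, from -1.66 to -2.55 and from -0.44 to -0.83. In KD clone 15 at 0 min, depth beyond 1 kb was 1.17 to 1.42, below the far background of 1.63. Its peak stood 1.33 above this background, so the 0.609% is a net value and not the height of the peak. The changes on subtraction at 0 and 10 min rested largely on clone 15. Exact permutation p values were 0.333 at 0, 10 and 25 min and 0.667 at 40 min. Over the 8 pairs matched on clone and time, which share 2 clones, KD was lower in 6, with a mean log2 difference of -0.84 ± 1.24 (SD; p = 0.0938, exact sign-flip permutation test, and 0.258 adjusted over 3 measures). Without clone 15, this difference was -0.31 over 4 pairs.

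By distance, the 2 clones were most alike at 25 min. At this time KD depth was below WT in 8 of 8 bins in both clones, at 57.9% next to the TSS and 81.0% in the outermost bin in clone 15, and at 64.5% and 98.6% in clone 18. The outward share was accordingly 4.80 and 5.72 percentage points higher in KD than in WT (exact p = 0.333), and the KD peak was 123 and 255 bp wider. The width had no such common direction over time, with KD less WT at -138 and 117 bp at 0 min, -568 and -80 bp at 10 min and 373 and 338 bp at 40 min in clones 15 and 18. The 373 bp of clone 15 rests on its flat WT profile, whose width is not that of a peak. At 10 min, KD depth was again lower in 8 of 8 bins in both clones, at 12.96% to 18.4% of WT in clone 15 and 52.7% to 74.3% in clone 18. In clone 18, the deficit at this time was greater in the outermost bin (52.7%) than from 0.5 to 0.25 kb (74.3%). At 0 min, the deficit in clone 18 lay within 1 kb, at 61.7% to 87.1% of WT, while the bins beyond 1 kb were at 97.8% to 106%. At 40 min in clone 18, KD was at 66.5% of WT in the bin next to the TSS and 129% from 1 to 0.75 kb. In clone 15 at 40 min, KD was above the flat WT profile in 8 of 8 bins, at 113% to 218%.

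**Figure D5:**
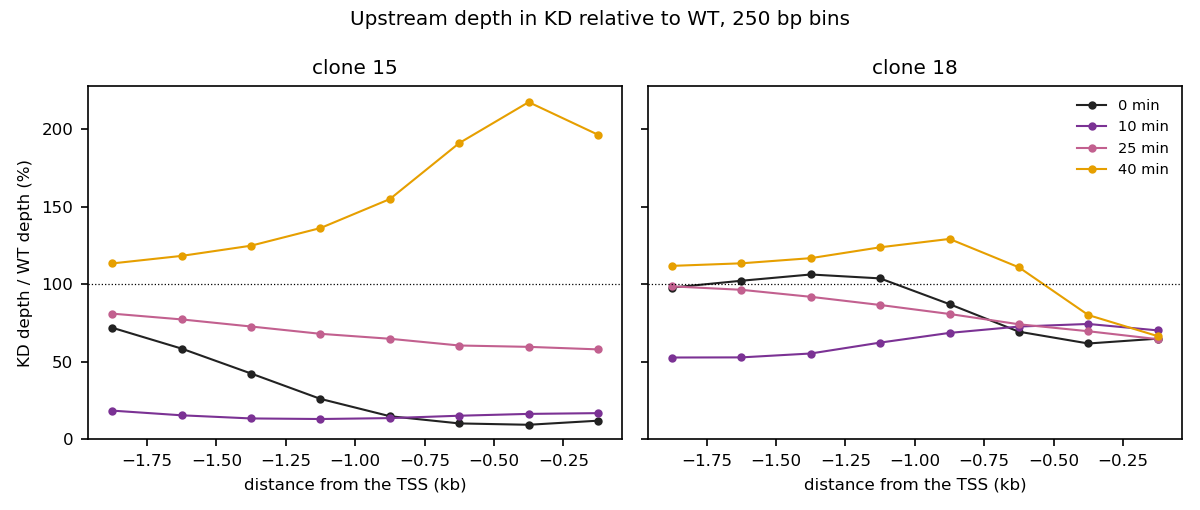
Mean upstream depth in KD as a percent of WT against distance from the TSS in kb, in 0.25 kb bins, 1 panel per clone and 1 line per time; the dotted line marks equal depth. At 25 min both clones lie below 100% in all 8 bins, and at 40 min clone 15 lies above it in all 8.

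The outward share at 0 min was 24.0 and 6.04 percentage points higher in KD than in WT in clones 15 and 18, and the differences at 10 min were -1.18 and -4.45 points. The latter mean difference went from -2.82 to -17.7 points with background subtracted. That value rested largely on KD clone 15, whose mean upstream depth at 10 min was only 0.638 above background. Its outermost bin lay below background, at 0.874 times. The peak lay 8 and 46 bp farther out in KD in clones 15 and 18 at 0 min, and 11 and 34 bp farther out at 25 min, but 72 and 7 bp nearer to the TSS at 10 min. At 40 min, the 2 clones had opposite signs, at -508 and 199 bp. The log2 ratio of upstream depth to the first 1 kb was higher in KD by 0.42 and 0.13 at 0 min and by 0.08 and 0.27 at 25 min, but differed by -0.14 and -0.05 at 10 min. The direction of the 0 min mean reversed in other definitions, 0.28 becoming -1.64 with background subtracted, -0.0120 for 1 kb on each side and -0.24 for peak heights. The value of -1.64 rested on KD clone 15, whose mean upstream depth was only 0.0597 above background. Clone 18 did not reverse with background subtracted. At 10 min, the mean of -0.09 became -0.67 with background subtracted, 0.15 for peak heights and 0.0277 for 2 kb downstream. At 25 min, the mean of 0.18 became -0.0553 for peak heights and -0.0662 for 2 kb downstream. At 40 min the clones again had opposite signs, at -0.10 and 0.29. In none of these comparisons was the exact permutation p below 0.333, and over the 8 pairs the mean log2 difference in ratio was 0.11 ± 0.20 (SD; exact p = 0.172, and 0.258 adjusted). For the outward share it was 3.65 ± 10.1 points (exact p = 0.359). A difference between genotypes in these measures was thus not detectable with 2 clones, which does not show that they were equal.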

How the data were processed

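DRB/GRO-seq profiles of 16 libraries were used. According to the methods and the submitters' processing notes, 36 bp strand-specific reads were processed with CASAVA 1.8.2 and aligned to hg19 with BWA 0.5.9, and reads on rRNA genes or blacklisted regions were removed. The authors extended reads to 250 bp, scaled libraries to 20000000 reads and deposited the signal, a read coverage averaged per base over 8529 genes of at least 30 kb with a trimmed mean (0.01). Scaling makes depth depend on all other reads of a library, and extension blurs shapes. The strand counted is not given in the sources used here. The labels name the times as doxycycline times and DRB as 100 mM. The methods give times after DRB release and 100 μM, which were followed for the times.

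Mean depth, the highest 50 bp running mean, width, outward share (beyond 1 kb) and ratio to the first 1 kb were computed in Python 3.11.15 (numpy 2.4.6, pandas 2.3.3) and checked on simulated profiles. Libraries were compared by exact two-sided permutation tests, 4 against 4 between times (n = 4, smallest p 0.0286) and 2 against 2 between genotypes (smallest p 0.333), with Benjamini-Hochberg adjustment over 20 and 16 tests. Sign-flip tests between times were paired by series of clone and genotype. Those between genotypes were paired by clone at single times, and by clone and time over 8 pairs, which share 2 clones. Same-numbered libraries are the same cell line. The clones' deviations correlated over 8 bins at r = -0.44, 0.96, 0.93 and -0.40 at 0, 10, 25 and 40 min. No test across many features was run. Sequence and annotation came from GRCh37 and GENCODE 44, over 8888 genes, which need not be the 8529. No gene was named from a measured value; by rule, CTNNBL1 only shows where a window lies. The window, measures and tests were chosen with earlier results of these data known.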

Additional observations from a re-analysis of the deposited data

Results flagged for a closer look

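At 10 min, the upstream peak of WT clone 15 lay 591 bp before the TSS, apart from the other 3 libraries at 519 to 529 bp, and the gap was 0.861 of the whole range. In 20 groups examined in this way, chance would give about 1 such library. The same library had the most depth in the outermost bin.

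At 40 min, the clones moved in opposite directions between KD and WT in 3 measures, and none of these differences was tested. The KD less WT difference of clone 15 less that of clone 18 was -707 bp for the distance of the peak, -15.2 percentage points for the outward share and -0.39 for the log2 ratio to the first 1 kb. The WT clone 15 profile that enters all 3 was flat and at the far background, and its part was not tested.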

How the results depend on the processing

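Of 248 alternative values for 39 results, 181 kept their direction and side of the threshold. Another 28 reversed direction, 36 no longer passed the threshold and 3 newly passed it. For KD against WT at single times, the exact p could not fall below 0.333. Time tests paired by series, or with a clone or series left out, could not pass the threshold either. In all of these only the direction was open, so the 181 is not a count of tests that could have changed side. Most of the 36 are also such settings, where a loss of the threshold was fixed in advance. The threshold was applied to unadjusted p values here, and no result passed it after adjustment. For the peak distance from 0 to 10 min, the replicate block gave 77.25 bp (p = 0.125, exact), the 200 bp running mean 72.75 bp (exact p = 0.0571) and the mean position 124.5 bp (exact p = 0.114). By mean position, the 10 to 25 min shift was 116.6 bp (exact p = 0.0286) and the 25 to 40 min shift -12.2 bp. With the replicate block, the differences in outward share (10.9 points from 10 to 25 min and 21.8 from 0 to 40 min), width (-466 bp from 25 to 40 min) and log2 ratio (0.31 from 0 to 10 min and 0.37 from 0 to 40 min) each had an exact p of 0.125, the smallest for 4 pairs. It changed no other call. Within 1 kb of the TSS, the outward share (beyond 500 bp) differed by 6.37 (exact p = 0.0286), -0.21 and 2.38 points from 0 to 10, 10 to 25 and 0 to 40 min, and KD less WT at 40 min was 3.33. The 10 to 25 min share was 15.4 points after background subtraction (exact p = 0.0857). Scaled to the whole profile, log2 depth from 25 to 40 min changed by -0.82 (exact p = 0.0286).

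The change in log2 ratio from 0 to 10 min was 1.05 with background subtracted. That mean rested largely on KD clone 15, whose upstream depth was only 0.0597 above background at 0 min. The change was 0.0884 for 1 kb on each side, -0.0235 for peaks and -0.00716 for 2 kb downstream. From 10 to 25 min the last 3 gave -0.0302, -0.0921 and -0.0540, and from 0 to 40 min -0.10, -0.28 and -0.24. KD less WT in this ratio at 0 min was -1.64 with background subtracted, -0.0120 for 1 kb and -0.24 for peaks. For peaks and for 2 kb downstream it was 0.15 and 0.0277 at 10 min, and -0.0553 and -0.0662 at 25 min. The cause of these reversals was not tested.

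With 1 clone or 1 clone 15 series left out (leaving out the WT one was chosen after seeing the data), time differences ranged as follows from 0 to 10, 10 to 25, 25 to 40 and 0 to 40 min. Peak distance ranged from 32.5 to 122 bp, -34.5 to 60.5 bp, -97.5 to 185.5 bp and -4.5 to 273 bp. Outward share ranged from 6.13 to 14.5, 4.89 to 16.9, -4.12 to 3.11 and 15.9 to 27.4 points. Width ranged from 155.5 to 465 bp, 98 to 328 bp, -600 to -331.5 bp and -34.3 to 136 bp. Log2 ratio ranged from 0.20 to 0.38, 0.06 to 0.39, -0.21 to -0.12 and 0.30 to 0.48, and log2 depth from 0.43 to 0.45, -1.57 to -0.64, -0.87 to -0.30 and -1.84 to -0.72. None of these smaller sets can reach an exact p of 0.05. KD less WT at 40 min ranged over the clones from -508 to 199 bp for peak distance, -10.5 to 4.77 points for outward share and -0.10 to 0.29 for log2 ratio. Log2 depth and ratio at 40 min had no value after background subtraction, since WT clone 15 lay below it.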
